A study of Mus musculus with 12 samples.

Results

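The globin genes examined here are the 7 adult and embryonic haemoglobin genes Hba-a1, Hba-a2, Hbb-bs, Hbb-bt, Hba-x, Hbb-y and Hbb-bh1, taken by symbol from a count table of 48576 gene lines. They were measured in bulk RNA in 12 mouse liver libraries of 5 groups. In the YAP model all mice carried Col-TRE-YAPS127A and Rosa26-LSL-rtTA, which place an active form of the growth regulator YAP under doxycycline control. They were given AAV-TBG-Cre, a viral Cre driven by a hepatocyte promoter, at 8 to 10 weeks of age. Livers were taken without induction (n = 2), or after YAPS127A had been induced with doxycycline for 2 weeks (n = 2) or 4 weeks (n = 3). In the MYC model, LAP-tTA; TRE-MYC mice express MYC from a liver-enriched promoter when doxycycline is absent. The drug was withdrawn from their mothers at about embryonic day 8, and the livers were taken 4 weeks after birth (n = 3). The MYC controls (n = 2) carried LAP-tTA alone on the same doxycycline schedule, with no age at collection given in the labels. The labels name no strain and no sex. They name hepatocytes as the cell type, but the RNA was isolated from total liver, so blood left in the vessels and any blood-forming cells could contribute to it. Markers of hepatocytes, Kupffer cells and sinusoidal endothelium were all present in each library: their summed levels were at least 37294, 274 and 207 CPM (counts per 1000000 after TMM scaling).

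Haemoglobin is a tetramer of alpha-type and beta-type globin chains, each holding a haem group that binds oxygen. In the mouse, the alpha-type genes lie on chromosome 11 and the beta-type genes on chromosome 7. Hba-x (zeta), Hbb-y and Hbb-bh1 are expressed in the primitive red cells of the yolk sac, and Hba-a1, Hba-a2, Hbb-bs and Hbb-bt in the definitive red cells that follow. The fetal liver is the main site of red cell formation before birth. Globin transcripts also persist in circulating reticulocytes, so a bulk liver library picks them up from blood. Laboratory strains differ in their adult beta globin genes: Hbb-bs and Hbb-bt are the pair in the C57BL/6 reference genome, while other strains carry Hbb-b1 and Hbb-b2, 2 symbols that were not among the table's gene lines.

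All 7 genes are protein coding in GENCODE vM21 (GRCm38). Hba-x lies at chr11:32276400-32278116, Hba-a1 at chr11:32283511-32284465 and Hba-a2 at chr11:32296489-32297298, all on the plus strand. On the minus strand of chromosome 7, Hbb-bt lies at chr7:103812524-103813996, Hbb-bs at chr7:103826534-103828096, Hbb-bh1 at chr7:103841637-103843164 and Hbb-y at chr7:103851749-103853216. The sequences matter here because each adult gene has a near-identical sister copy. Over their coding sequences of 429 bases with the stop codon, Hba-a1 and Hba-a2 differed at 1 base, C381T, counted from the first base of the start codon and with the Hba-a1 base first. Hbb-bs and Hbb-bt differed at 1 of 444 coding bases, C417T, with the Hbb-bs base first. Neither change alters the amino acid. The 31 bases around each difference are shown with the differing base in capitals.
Hba-a1: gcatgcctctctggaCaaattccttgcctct
Hba-a2: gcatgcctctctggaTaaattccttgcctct
Hbb-bs: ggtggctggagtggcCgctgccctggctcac
Hbb-bt: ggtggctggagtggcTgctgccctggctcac
The embryonic genes were far less alike. Hba-x matched Hba-a1 at 62% of coding bases, and Hbb-y and Hbb-bh1 matched Hbb-bs at 74.3% and 74.1%.

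The share of each transcript that can tell the copies apart was therefore small for the adult genes. Of all 75-base windows of the Hba-a2 transcript, 19% were found in no other annotated gene. That share was 37.8% for Hba-a1, 35.7% for Hbb-bs and 43.4% for Hbb-bt, and it was 100% for each of the 3 embryonic genes. Of the 236 such windows of Hba-a1, 161 started at its annotated 5′ end, upstream of the RefSeq start. There the genome gives no distinction: the 247 bases compared before the RefSeq starts of Hba-a1 and Hba-a2 were identical. The remaining 75 windows covered the single coding difference and Hba-a2 had the same number there, with 16 more at its 3′ end. How reads that fit both copies were counted is not given in the sources used here, so levels of the adult genes are minimum values if such reads were dropped, and the split between copies is uncertain.

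**Figure D1:**
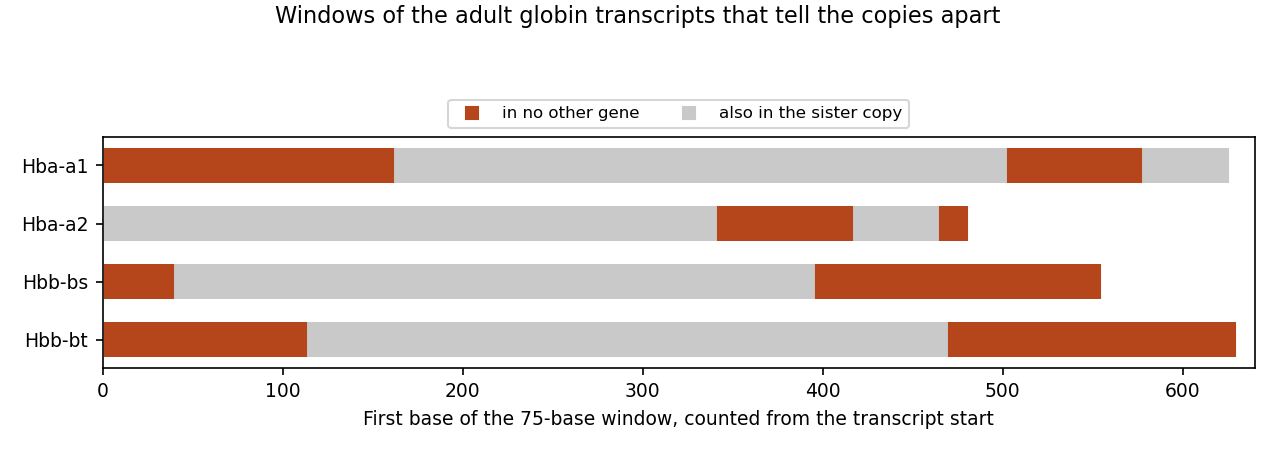
Positions along each adult globin transcript (x axis, first base of a 75-base window) at which the window occurs in no other annotated gene (red) or also in the sister copy (grey). The longest grey stretch of each bar, 341 windows in the alpha genes and 356 in the beta genes, is shared by the copies, and in Hba-a2 it starts at the 5′ end.

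RefSeq promoters were found for 6 of the 7 genes. Those of the adult genes are shown because only these members had enough counts to be tested. Each line gives the 130 bases before the RefSeq start (GRCm38.p6), with matches to CACCC (the letters of a KLF1-type site), the CCAAT box and the TATAA box, each on either strand, in capitals. CCAAT read from the other strand shows as its reverse complement.
Hba-a1, chr11:32283542-32283671, plus strand: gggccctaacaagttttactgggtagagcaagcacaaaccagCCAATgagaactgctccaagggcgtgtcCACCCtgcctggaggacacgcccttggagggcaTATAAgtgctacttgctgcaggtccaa
Hbb-bs, chr7:103827929-103828058, minus strand: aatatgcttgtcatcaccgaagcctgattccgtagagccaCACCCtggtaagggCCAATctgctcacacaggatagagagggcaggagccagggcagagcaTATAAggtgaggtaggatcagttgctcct
Hbb-bt, chr7:103813924-103814053, minus strand: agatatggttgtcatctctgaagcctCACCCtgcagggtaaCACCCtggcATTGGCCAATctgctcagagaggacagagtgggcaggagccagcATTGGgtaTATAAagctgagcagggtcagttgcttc
The promoter of Hba-a2 was identical to that of Hba-a1 apart from a shift of 3 bases in the annotated start. All 4 adult promoters held each of these motifs, and GATAA (the letters of a GATA site), at least once in the 250 bases before the start. Among all 32851 RefSeq promoters of that length, on either strand, the CACCC letters were held by 52%, the CCAAT box by 33.8%, the TATAA box by 22.8% and the GATA letters by 22.6%. Such matches describe the letters only.

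Total counts ranged from 12511170 to 17690798 per library. The 7 globin genes together took between 8.3e-05% and 0.0649% of them, from 12 counts in YAP 2-week replicate 1 to 8123 counts in MYC replicate 2. By group, the share was 0.00104% ± 0.00045 in the YAP controls (SD, n = 2), 0.00109% ± 0.00143 at 2 weeks of YAP (n = 2), 0.00199% ± 0.0015 at 4 weeks (n = 3), 0.00571% ± 0.00118 in the MYC controls (n = 2) and 0.0346% ± 0.0286 in the MYC livers (n = 3). Every MYC-model library was above every YAP-model library. The models differ in age, transgenes and possibly strain, so their levels are set side by side without a test. The labels do not say that libraries of a group came from separate animals, so the p-values measure only the spread between these libraries, each called a liver here.

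The embryonic globins were at or near 0 throughout. Hba-x and Hbb-bh1 had 0 counts in all 12 libraries. Hbb-y, the early embryonic beta-type chain, had 3 counts in YAP 2-week replicate 2 and 0 in the other libraries. A count of 0 allows up to 3 counts, which is 0.167 to 0.318 CPM depending on the library, and this limit covers counting error only. None of the 3 embryonic genes entered the test, so no comparison could be made for them, the MYC livers that had been induced from about embryonic day 8 included. All of their 75-base windows were found in no other annotated gene.

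Hbb-bs is an adult beta chain gene. Its level was 2.22 and 1.17 CPM in the YAP controls, 0.0708 and 1.55 CPM at 2 weeks of YAP, and 0.635, 2.35 and 1.06 CPM at 4 weeks. It was 29.3 and 39.5 CPM in the MYC controls and 42.4, 266 and 149 CPM in the MYC livers. All 3 MYC livers were above both of their controls, and the MYC controls were above every YAP-model library. The YAP groups overlapped.

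Hbb-bt, the other adult beta chain gene, followed the same order with a smaller step between the models. It stood at 15.2 and 6.37 CPM in the YAP controls, 0.779 and 14.9 CPM at 2 weeks, and 6.16, 26.2 and 8.79 CPM at 4 weeks. In the MYC model it stood at 28.9 and 37.2 CPM in the controls and 41.7, 299 and 111 CPM in the MYC livers. YAP 4-week replicate 2, at 26.2 CPM, came close to the MYC controls. Again all MYC livers were above their controls and the YAP groups overlapped.

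The adult alpha chain genes gave few counts. Hba-a1 was at 0.193 and 1.17 CPM in the YAP controls, 0 and 0.12 CPM at 2 weeks, 0.191, 0.344 and 0.0556 CPM at 4 weeks, 3.09 and 1.72 CPM in the MYC controls and 0.596, 4.56 and 5.69 CPM in the MYC livers. These values rest on 0 to 98 counts per library. MYC replicate 1 was below both MYC controls and the other MYC livers were above them. Hba-a2 showed the reverse distribution over the models: it had 8 to 19 counts in 6 of the 7 YAP-model libraries and 0 in YAP 2-week replicate 1, and its only count in the 5 MYC-model libraries was 1 in MYC replicate 2. Its highest level was 1.14 CPM, in YAP 2-week replicate 2.

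**Figure D2:**
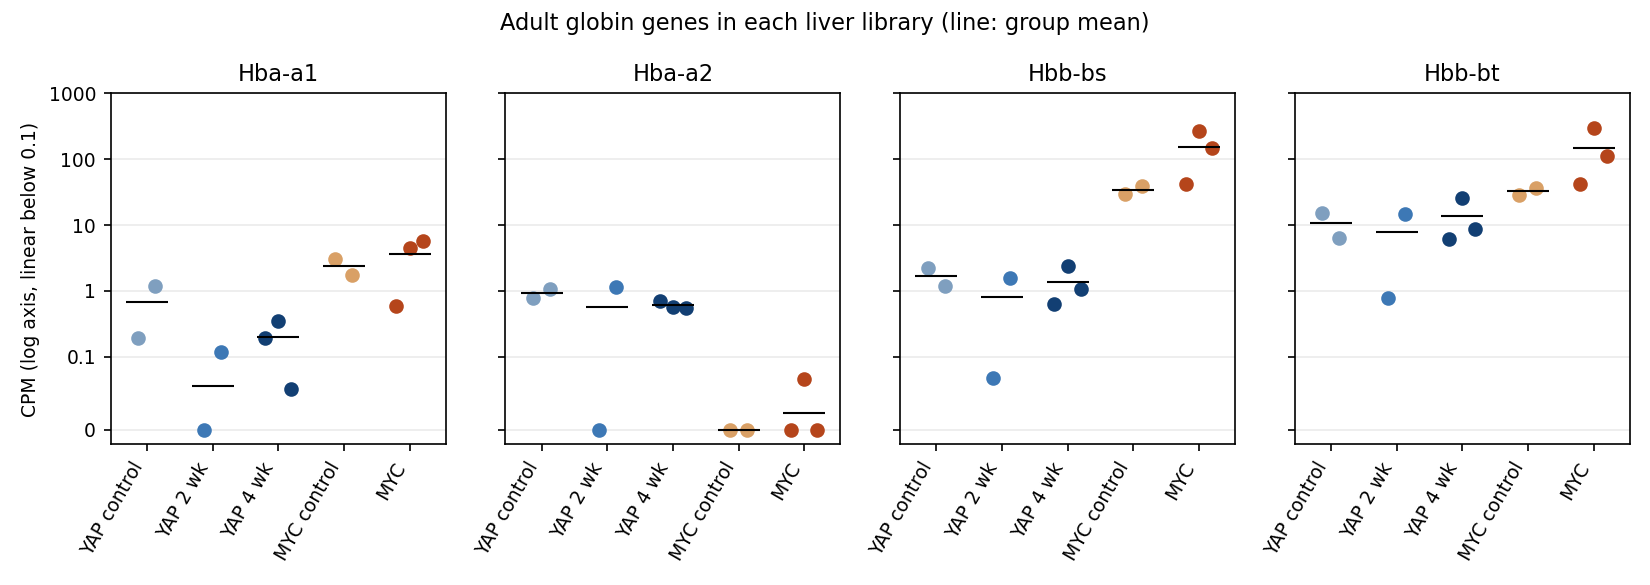
Level of each adult globin gene (y axis, CPM on a log axis that is linear below 0.1) in each of the 12 liver libraries, by group, with a line at the group mean. In the beta genes the 3 MYC livers lie above their 2 controls, whereas Hba-a1 overlaps between them and Hba-a2 is at 0 in all but 1 of the MYC-model libraries.

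Alpha and beta chains are made in nearly equal amounts in red cells, but their counts here were far from equal. Hba-a1 and Hba-a2 together made up 0.703% to 5.04% of the adult globin counts in the MYC model and 0% to 22.8% in the YAP model. Per kilobase of exon, the mean level in the MYC livers was 4.45 CPM for Hba-a1, 198 CPM for Hbb-bs and 214 CPM for Hbb-bt (n = 3). In the YAP controls it was 0.838 CPM for Hba-a1, 1.37 CPM for Hba-a2, 2.21 CPM for Hbb-bs and 15.3 CPM for Hbb-bt (n = 2). The share of windows found in no other annotated gene was 35.7% for Hbb-bs and 43.4% for Hbb-bt. For Hba-a1 it was 37.8%, but 161 of its 236 such windows started upstream of the RefSeq start. There the genome sequence matched that before the start of Hba-a2. Only 75 of the 625 windows of Hba-a1 covered the coding difference. The share was lower for Hba-a2, at 19%. The part of these shares in the gap was not tested.

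The split of counts between sister copies differed between the models. Hbb-bt took 87.2% and 84.5% of the counts of Hbb-bs plus Hbb-bt in the YAP controls, 91.7% and 90.5% at 2 weeks, and 90.7%, 91.8% and 89.3% at 4 weeks. It took 49.6% and 48.5% in the MYC controls and 49.6%, 52.9% and 42.9% in the MYC livers. The lowest YAP-model value, 84.5%, had a 95% exact (Clopper-Pearson) binomial interval of 74% to 92% (60 of 71 counts). The highest MYC-model value, 52.9%, had an interval of 51.8% to 54% (4265 of 8057 counts). YAP 2-week replicate 1 had only 12 counts of the pair and an interval of 61.5% to 99.8%. The intervals cover counting error only, since the reads carried no stated molecular identifiers.

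Among the MYC-model libraries the split was not constant either. MYC replicate 3, at 42.9% (interval 41.4% to 44.3%), was below MYC replicate 2, at 52.9%, by more than counting error. Hba-a1 took 20% and 52.4% of the counts of Hba-a1 plus Hba-a2 in the YAP controls, 9.52% in 2-week replicate 2, and 21.4%, 37.5% and 9.09% at 4 weeks. In the MYC model it took 100% in all libraries except MYC replicate 2, where it took 98.5% (65 of 66 counts). In total that was 25 of 93 counts in the YAP model and 230 of 231 in the MYC model. The difference between the models was present in the controls as well as in the induced livers, and the labels give no strain. What sets it was not tested.

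**Figure D3:**
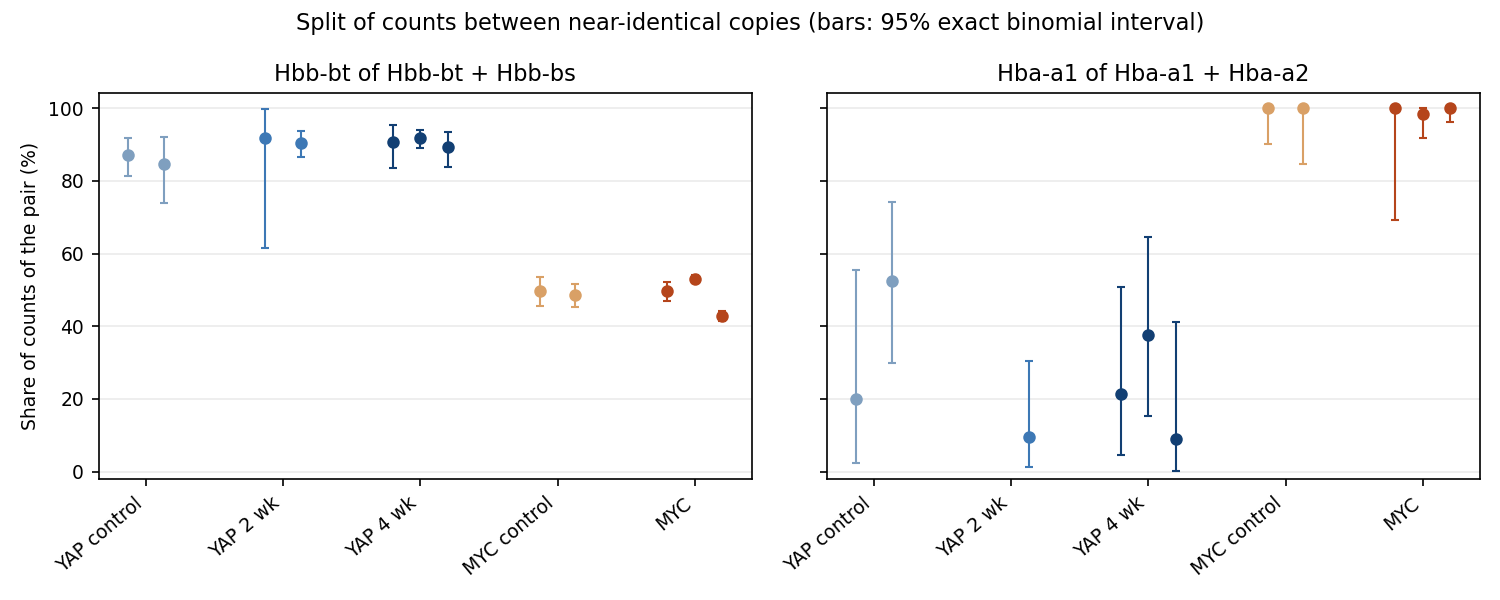
Share of counts (y axis, %) that Hbb-bt takes of Hbb-bt plus Hbb-bs (left) and that Hba-a1 takes of Hba-a1 plus Hba-a2 (right), 1 point per library with its 95% exact binomial interval. The 7 YAP-model points on the left lie between 84.5% and 91.8% and the 5 MYC-model points between 42.9% and 52.9%; YAP 2-week replicate 1 is missing on the right because it had 0 counts of both genes.

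The MYC livers were compared with their LAP-tTA controls to ask how overexpression of MYC from embryonic life changed the liver transcriptome. The adult beta globins were 4.42-fold and 4.56-fold higher in the MYC livers, but with a spread between livers too wide for the test. By edgeR's quasi-likelihood test over 17964 genes, the log2 fold change of Hbb-bs was 2.14 ± 0.82 (SE; 95% interval 0.29 to 4.00; unadjusted p = 0.0278, Benjamini-Hochberg adjusted p = 0.103). That of Hbb-bt was 2.19 ± 1.14 (interval -0.38 to 4.76; adjusted p = 0.219). Hba-a1 had a log2 fold change of 0.59 ± 0.90 (interval -1.39 to 2.57; adjusted p = 0.702). Hba-a2 was under the limit of 3 counts in both groups, so no fold is given for it and it could not have been called. The test called 0 of the 4 globin genes tested, against 18.3% of all genes tested; 1 of the 4 (Hbb-bs) had an unadjusted p under 0.05, and DESeq2 also called 0. For 2 of the 4, Hbb-bs and Hbb-bt, every MYC liver was above every control, an order that 26.8% of all genes tested showed.

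The spread came from the MYC livers themselves. The highest MYC liver was 6.27 times the lowest for Hbb-bs and 7.17 times for Hbb-bt, whereas the controls were within 1.34 and 1.29 times of each other. MYC replicate 2 was highest and replicate 1 lowest for both. Without replicate 1, Hbb-bs passed the test, with a log2 fold change of 2.59 (edgeR adjusted p = 0.0213, from 0.0213 to 0.397 over all libraries left out in turn). In bulk tissue, more red cells or precursors and more globin RNA in each of them cannot be told apart.

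Genes of red cell precursors rose in the MYC livers. Of 14 genes of the red cell membrane and its skeleton, 13 rose, 0 fell and Tspan33 did not pass, while of all genes tested 9.76% rose and 8.56% fell (median log2 fold change 7.02, or 6.48 with the 3 genes that were at 0 in the controls set to their lower bound; 0.02 over all genes tested). These 3 genes could not have been called lower, and Cldn13, 1 of them, entered the test only through its 446 counts in the MYC livers. For them the shares of all genes are not a like background. In each list and comparison below, genes at 0 in the controls likewise could not have been called lower. Slc4a1, the band 3 anion exchanger, was at 4.6 and 6.86 CPM in the controls and 128, 833 and 414 CPM in the MYC livers (log2 fold change 6.32 ± 1.52, adjusted p = 0.0213). Sptb, a chain of the membrane skeleton, rose by 5.76 ± 0.73 (adjusted p = 0.00142). Ank1, the ankyrin that ties the skeleton to band 3, rose by 7.45 ± 0.83 (adjusted p = 0.000814), Epb42, protein 4.2, by 6.64 ± 1.22 (adjusted p = 0.0068) and Ermap, a blood group protein, by 9.19 ± 1.28 (adjusted p = 0.00217). Rhd, an Rh blood group protein, had 224, 984 and 524 counts in the MYC livers and 0 in both controls, which makes it at least 302-fold higher against a limit of 3 counts over the 2 controls.

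Of 13 transcription factors and receptors that direct red cell formation, 9 rose, 0 fell and 4 did not pass (median 4.32). Gata1, the master erythroid factor that binds globin promoters and enhancers, had 0 counts in both controls and 179, 423 and 249 in the MYC livers, at least 147-fold higher. Klf1, the factor that binds CACCC letters in the adult beta globin promoters, was at 2.65 and 1.25 CPM in the controls and 34.2, 98.8 and 36.6 CPM in the MYC livers (log2 fold change 4.86 ± 0.65, adjusted p = 0.00148). Tal1, a partner of Gata1, rose by 5.30 ± 0.63 (adjusted p = 0.000853) and Ldb1, which joins enhancers to promoters, by 0.99 ± 0.27 (adjusted p = 0.026). Of 10 tested genes of late red cell maturation, 6 rose, 0 fell and 4 did not pass (median 3.64, or 3.43 with the gene at 0 in the controls at its bound). Among the 6 were the carbonic anhydrases Car1 and Car2 (3.44 ± 0.68 and 3.84 ± 0.53, adjusted p = 0.00875 and 0.00173), Trim10 (7.04 ± 1.23, adjusted p = 0.00709) and Hemgn, an erythroid nuclear protein with 1 count over both controls and 434, 2162 and 1002 counts in the MYC livers.

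The 4 late genes that did not pass included Alas2 and Bpgm. Alas2, the erythroid enzyme that starts haem synthesis, was at 28.6 and 34.5 CPM in the controls and 19.7, 102 and 75.5 CPM in the MYC livers (1.06 ± 0.59, adjusted p = 0.253). As with Hba-a1, MYC replicate 1 was below both controls. Bpgm, whose product lowers the oxygen affinity of haemoglobin, was at 0.87 ± 0.47 (adjusted p = 0.234).

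**Figure D4:**
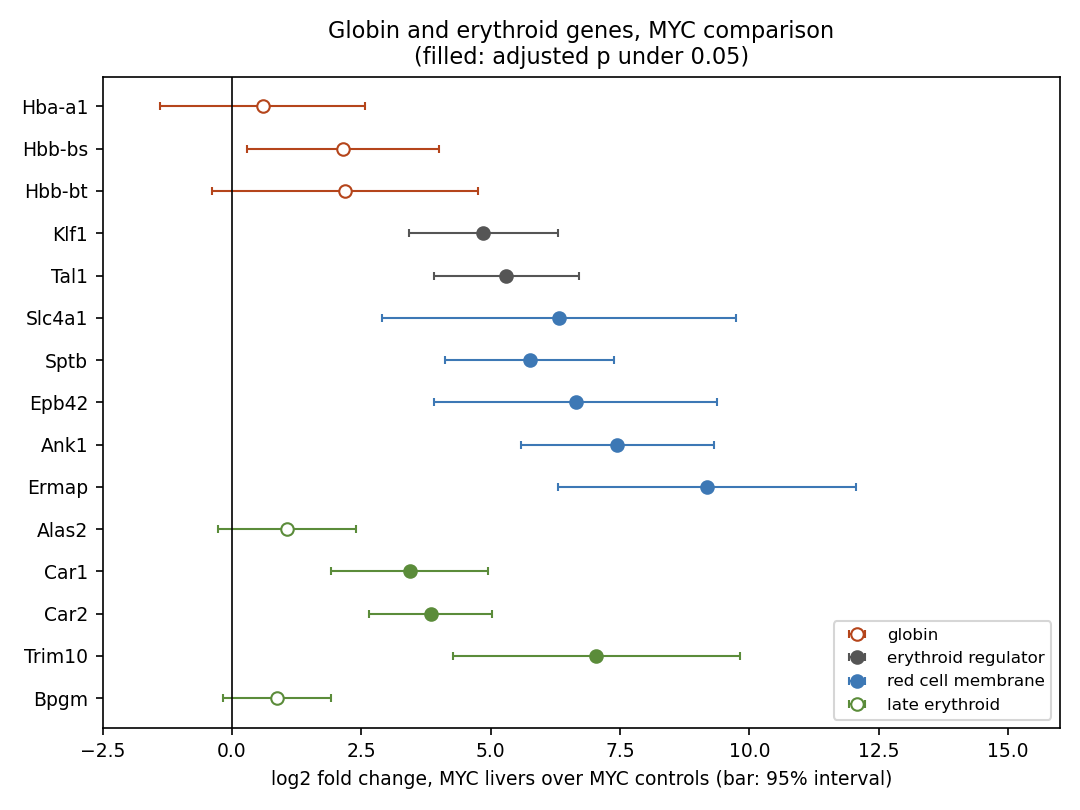
Log2 fold change between MYC livers and their controls (x axis, with 95% intervals) for 3 adult globin genes and named erythroid genes, filled where the adjusted p was under 0.05. The beta globins sit at 2.14 and 2.19 with intervals reaching towards or past 0, while the membrane genes shown lie between 5.76 and 9.19. Some of these were named for their small p, so their range is not that of the list of 14 (median 7.02). Smaller steps among those not shown were Tspan33, Icam4 and Tfrc. Their mean levels were 10.6, 0.328 and 23.8 CPM in the controls and 36.3, 3 and 279 CPM in the MYC livers. Gata1, Rhd and Hemgn are left out because their controls held at most 1 count.

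Within the MYC livers, the beta globins kept an almost fixed ratio to Slc4a1. Taken per kilobase of exon, Hbb-bs plus Hbb-bt stood at 2.19, 2.25 and 2.09 times the level of Slc4a1 in the 3 MYC livers, although the globin level itself ran from 57.2 to 384 CPM per kilobase. The same ratio was 42.1 and 37.1 in the MYC controls, so no MYC liver was near its controls. In the YAP model it was 21.4 and 11.2 in the controls, 4.57 in 2-week replicate 2, and 1.75, 12.9 and 7.85 at 4 weeks, and YAP 2-week replicate 1 had 0 counts of Slc4a1. Against Epb42 the ratio was between 23.3 and 25.3 in the MYC livers and between 347 and 905 in their controls, which had 7 and 4 counts of it. Against Alas2 it differed less, at 6.97, 9.04 and 5.63 in the MYC livers and 3.32 and 3.62 in their controls. These ratios are descriptions and were not tested.

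**Figure D5:**
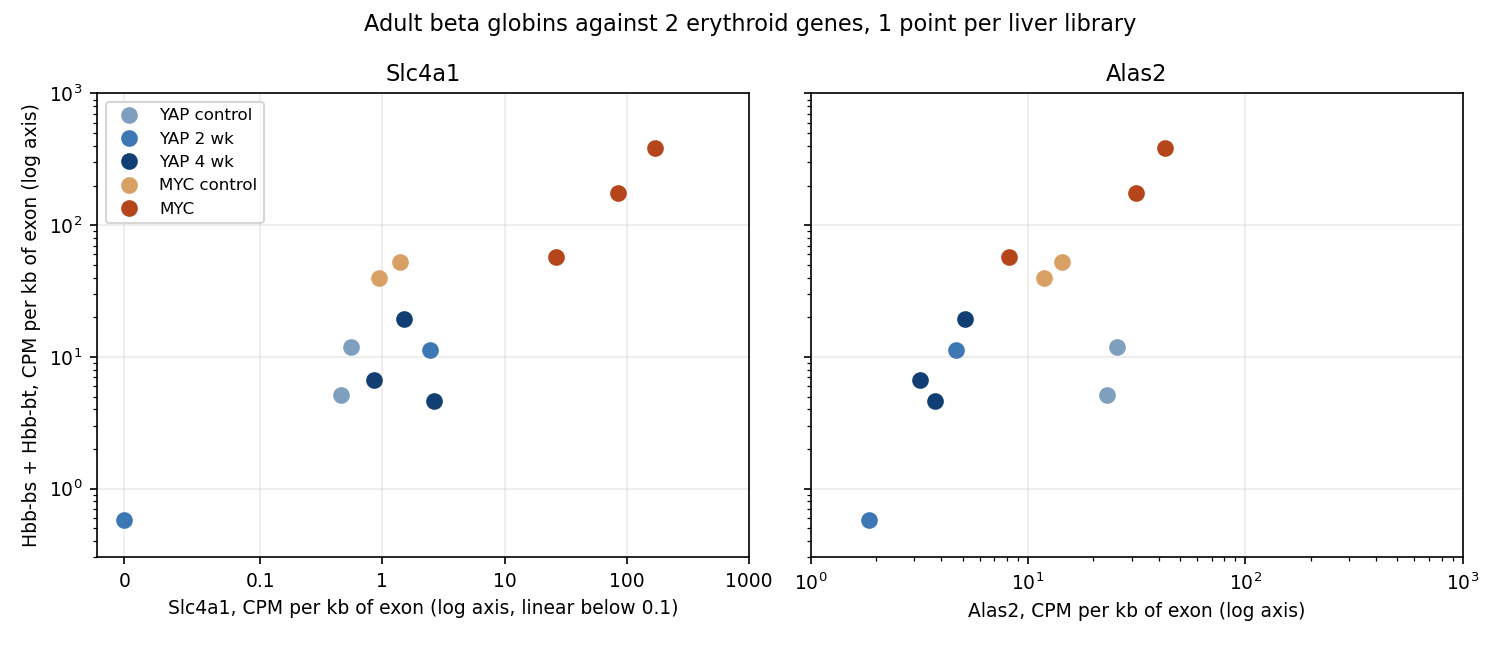
Level of Hbb-bs plus Hbb-bt (y axis, CPM per kilobase of exon, log axis) against Slc4a1 (left) and Alas2 (right), 1 point per library. On the left the MYC livers lie far to the right of their controls for a smaller step upwards, and on the right the YAP controls lie to the right of the induced YAP livers, at 25.7 and 23.2 CPM per kilobase of Alas2.

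Markers of other blood cells moved in the same livers. All 13 neutrophil genes rose (median 7.76, or 7.60 with the gene at 0 in the controls at its bound; summed level 7.6 to 8.89 CPM in the controls and 825 to 1619 CPM in the MYC livers), and all 11 platelet and megakaryocyte genes rose (median 4.35; 7.64 to 8.13 CPM against 77.5 to 150 CPM). Elane, a granule protease of immature neutrophils, had 1 and 0 counts in the controls and 480, 579 and 330 in the MYC livers, and Pf4, platelet factor 4, rose by 5.15 ± 0.84 (adjusted p = 0.00374). Of 7 haematopoietic progenitor genes 1 rose and 6 did not pass, and this 1 call was lost in 10 of the 12 fits that left out 1 library (edgeR adjusted p up to 0.282) and without the filter on low counts (0.135). Of 9 Kupffer cell genes 4 rose and 5 did not pass. None of the 7 B cell and 5 tested T cell genes passed. Of 8 sinusoidal endothelium genes, 1 fell and 7 did not pass. That call was lost in 9 of the 12 fits that left out 1 library (edgeR adjusted p up to 0.193) and with total-count scaling (0.147), while 3 of the 8 fell by DESeq2 and without MYC replicate 1. Of 10 hepatocyte genes, 5 did not pass and 5 fell, among them Alb, albumin (log2 fold change -1.66 ± 0.47, adjusted p = 0.032), which was at 65515 and 67979 CPM in the controls and 29474, 22075 and 11948 CPM in the MYC livers. The part of these shifts in the globin result was not tested.

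These counts depend on the 2 MYC control livers. Leaving out control replicate 1 lowered the membrane genes that rose from 13 to 7, the regulators from 9 to 4, the late genes from 6 to 2, the platelet genes from 11 to 4 and the neutrophil genes from 13 to 2. Leaving out control replicate 2 gave 7, 6, 2, 5 and 4. In both cases the remaining control was assumed to vary like the other groups, and no gene of these lists fell. Of the 4 Kupffer cell genes that rose, 0 passed without either control, and the hepatocyte genes that fell numbered 1 without either control or MYC replicate 3, 2 without MYC replicate 2 and 8 without MYC replicate 1. Slc4a1, Epb42, Car1 and Trim10 each lost their call without either control, with adjusted p from 0.0731 to 0.18, and Slc4a1 also without the filter on low counts (edgeR adjusted p = 0.0656). The calls of Alb and Ldb1 were lost without either control, MYC replicate 2 or MYC replicate 3 (adjusted p up to 0.136 and 0.212), and that of Pf4 without control replicate 2 (0.0559). Without MYC replicate 1, which lowered the mean of the group, Alas2 and Bpgm passed as Hbb-bs did (adjusted p = 0.0154 and 0.0196). Gata1, Klf1, Tal1, Ank1, Sptb, Ermap, Rhd, Hemgn and Car2 kept their calls with each of the 12 libraries left out.

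The YAP livers were compared with uninduced controls at 2 and 4 weeks to follow the response to YAPS127A over time. No change of the globin genes was detectable. At 2 weeks edgeR's quasi-likelihood test called 0 of the 4 tested, against 27.8% of all genes tested, and at 4 weeks 0 of 4, against 33.8%. In both comparisons 0 of the 4 had an unadjusted p under 0.05 and DESeq2 called 0. The 2 comparisons share their control livers. For Hbb-bs the log2 fold change was -1.00 ± 1.24 at 2 weeks (95% interval -3.79 to 1.79, adjusted p = 0.587) and -0.33 ± 1.06 at 4 weeks (interval -2.73 to 2.07, adjusted p = 0.837). For Hbb-bt it was -0.45 ± 1.22 at 2 weeks (interval -3.21 to 2.31, adjusted p = 0.82) and 0.35 ± 1.11 at 4 weeks (interval -2.16 to 2.85, adjusted p = 0.835). These intervals include both rises and falls, and with total-count scaling the sign of Hbb-bs at 4 weeks and of Hbb-bt at 2 weeks was the opposite, with neither called. Single livers also set the signs at 4 weeks: Hbb-bs stood at 0.22 without YAP control replicate 1, and Hbb-bt at -0.53 without 4-week replicate 2 and at -0.14 without YAP control replicate 2. At 2 weeks Hbb-bt stood at 0.48 without 2-week replicate 1 and at 0.32 without YAP control replicate 1.

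Hba-a1 was lower in both 2-week livers than in both controls (log2 fold change -3.23 ± 1.51, interval -6.55 to 0.09, unadjusted p = 0.0557, edgeR adjusted p = 0.134), on 2 counts against 13. Such an order, every 2-week liver below every control, was found in 30% of all genes tested. At 4 weeks it stood at -1.73 ± 1.15 (adjusted p = 0.267) and overlapped the controls, and without YAP control replicate 2 it stood at 0.02. Hba-a2 stood at -0.65 ± 1.22 at 2 weeks and -0.58 ± 1.10 at 4 weeks (adjusted p = 0.729 and 0.712), and at 0.32 without 2-week replicate 1 and 0.14 at 4 weeks with total-count scaling. All 3 of its 4-week livers were below both controls, as in 26.4% of all genes tested. The spread at 2 weeks was between the 2 livers: replicate 1 had 12 globin counts and replicate 2 had 299, and the level of Hbb-bs differed 21.9-fold and that of Hbb-bt 19.1-fold between them. Replicate 1 also had 0 counts of Slc4a1 and Epb42.

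Between 4 and 2 weeks of YAP, 0 of the 4 globin genes were called, against 0.0612% of all genes tested (edgeR; 0 with an unadjusted p under 0.05; DESeq2 called 0). The log2 differences were 0.67 ± 1.10 for Hbb-bs, 0.79 ± 1.11 for Hbb-bt, 1.50 ± 1.54 for Hba-a1 and 0.07 ± 1.10 for Hba-a2, with adjusted p from 0.862 to 0.996. Without 2-week replicate 1 the sign turned for Hbb-bs (-0.18), Hbb-bt (-0.10) and Hba-a2 (-0.88), none of them called. It also turned for Hbb-bt without 4-week replicate 2 (-0.08) and for Hba-a2 without 4-week replicate 1 (-0.04). How far the response to MYC exceeded that to 4 weeks of YAP was also tested. That difference was 2.47 ± 1.33 for Hbb-bs (adjusted p = 0.292), 1.84 ± 1.54 for Hbb-bt (adjusted p = 0.513) and 2.32 ± 1.46 for Hba-a1 (adjusted p = 0.36), so 0 of 4 were called, against 7.48% of all genes tested (0 with an unadjusted p under 0.05; DESeq2 called 0). The globin responses of the 2 models were therefore not shown to differ.

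Among the genes around haemoglobin, Alas2 and Car1 fell in the YAP livers. Alas2 was at 61.8 and 55.8 CPM in the YAP controls, 4.46 and 11.2 CPM at 2 weeks, and 9.02, 12.3 and 7.62 CPM at 4 weeks. It fell by 2.90 ± 0.69 on the log2 scale at 2 weeks (edgeR adjusted p = 0.013) and by 2.61 ± 0.58 at 4 weeks (adjusted p = 0.00856). The 2-week call was lost without YAP control replicate 1 (adjusted p = 0.0521) or 2-week replicate 1 (adjusted p = 0.0794). Car1 fell by 3.43 ± 0.78 and 3.04 ± 0.65 (adjusted p = 0.0103 and 0.00638), a call that was lost without YAP control replicate 1 at both times (0.0596 and 0.0545) and without either 2-week liver at 2 weeks (0.0639 and 0.0775). The YAP controls thus had more Alas2 and less Hbb-bs and Hbb-bt than the MYC controls: per kilobase, their beta globins stood at 0.459 and 0.221 times Alas2, against 3.32 and 3.62 times in the MYC controls.

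The other red cell genes mostly did not pass in the YAP model. Of the 14 membrane genes, 1 rose and 1 fell at 2 weeks, and 2 rose and 1 fell at 4 weeks. Of all genes tested, 15.1% rose and 12.7% fell at 2 weeks, and 18.1% rose and 15.7% fell at 4 weeks. The medians of the membrane genes exceeded that of all genes (median 1.78 and 2.15, or 1.17 and 1.56 with 3 genes at their bounds; 0.10 and 0.18 over all genes tested). Those that rose were Sptb at both times (2.58 ± 0.66 and 3.07 ± 0.64, adjusted p = 0.0179 and 0.00616) and Ank1 at 4 weeks (3.48 ± 1.04, adjusted p = 0.0285), and Tspan33 fell at both. Without YAP control replicate 2 all of these calls were lost (adjusted p from 0.0518 to 0.154), and without replicate 1 all but that of Sptb at 4 weeks (0.066 to 0.127). Other livers left out also ended the 2-week calls of Sptb and Tspan33 and the 4-week call of Ank1. Of the 13 regulators, Ldb1 rose at both times (2.10 ± 0.29 and 1.81 ± 0.28, adjusted p = 0.00063 and 0.000788), Zfpm1 fell at 2 weeks, a call lost in 8 of the 12 fits that left out 1 library (adjusted p up to 0.207), and the rest did not pass (median 0.36 and 0.54). Gata1 had 0 to 6 counts in each YAP-model library. Of the 10 late genes, 0 rose and 2 fell at each time, Alas2 and Car1 (median 0.00 and 0.50, or 0.00 at both times with 3 genes at their bounds). Neutrophil genes rose (8 of 13 at 2 weeks and 10 of 13 at 4 weeks, median 5.27 and 5.52, or 4.50 and 4.57 with 4 genes at their bounds), as did 6 of 11 platelet genes at each time (median 3.95 and 4.90, or 1.30 and 1.71 with 6 genes at their bounds). Without YAP control replicate 1 the neutrophil genes that rose numbered 3 and 3, and without replicate 2 also 3 and 3. They numbered 2 at 2 weeks without 2-week replicate 2, and 5 or 6 at 4 weeks without 4-week replicate 1 or 3. The platelet genes that rose numbered 1 to 3 at 2 weeks without any 1 of the 4 livers compared, and 3 at 4 weeks without YAP control replicate 2.

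In the YAP livers, Kupffer cell genes rose at 2 weeks in 6 of 9 cases and at 4 weeks in 3 of 9, hepatocyte genes fell in 3 and 6 of 10, and 1 of 8 endothelial genes rose at 2 weeks and 0 at 4 weeks. Of 7 progenitor genes 1 rose at each time and 1 fell at 4 weeks. Of 7 B cell genes 1 rose at 2 weeks and 0 at 4 weeks, and of 5 tested T cell genes 2 rose at 2 weeks and 3 rose and 1 fell at 4 weeks. Their summed levels stayed low, at 4.64 to 16.1 CPM for B cells and 2.73 to 6.14 CPM for T cells in the YAP model. Leaving out a YAP control changed several of these counts: the Kupffer genes that rose at 4 weeks numbered 1 without replicate 1 and 0 without replicate 2, and the T cell genes 1 without either. The B cell call was lost without YAP control replicate 2 (edgeR adjusted p = 0.0923) and without either 2-week liver (0.0655 and 0.0609). None of the 7 progenitor genes passed at 4 weeks without either YAP control (the gene that rose 0.063 and 0.0585, the gene that fell 0.201 and 0.0644), or at 2 weeks without YAP control replicate 2 or 2-week replicate 2. The endothelial call at 2 weeks was lost without YAP control replicate 1 (0.0625), 3 endothelial genes rose at each time with total-count scaling, and 4 fell at 4 weeks without 4-week replicate 1. Without YAP control replicate 1 the hepatocyte genes that fell numbered 1 at 2 weeks and 3 at 4 weeks, and without 2-week replicate 2 they numbered 1 at 2 weeks. With total-count scaling they numbered 1 and 2. The part of these shifts in the globin values was not tested.

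Haem synthesis genes, which hepatocytes also use for their own enzymes, fell in part in the YAP livers. Of 12 genes, 5 fell and 0 rose at 2 weeks, and 6 fell and 0 rose at 4 weeks (median -0.65 and -0.89). With total-count scaling, under which the median of all genes was 0.64 at 2 weeks and 0.91 at 4 weeks, the counts were 3 and 2. Cpox, coproporphyrinogen oxidase, was at 223 and 204 CPM in the controls, 75.5 and 91 CPM at 2 weeks, and 79.7, 86.8 and 73.3 CPM at 4 weeks (-1.36 ± 0.20 and -1.42 ± 0.18, adjusted p = 0.000908 and 0.000296). Tmem14c, which moves a haem precursor within mitochondria, fell by 1.22 ± 0.19 and 1.48 ± 0.17 (adjusted p = 0.00109 and 0.000162). Abcb10, a mitochondrial transporter, fell by 1.33 ± 0.33 and 1.61 ± 0.29 (adjusted p = 0.0124 and 0.00208) and Urod, uroporphyrinogen decarboxylase, by 1.11 ± 0.23 and 1.09 ± 0.20 (adjusted p = 0.00467 and 0.00222). With total-count scaling Abcb10 and Urod lost their calls at 2 weeks (adjusted p = 0.118 and 0.104) and at 4 weeks (0.0504 and 0.228), and Abcb10 lost that at 2 weeks also without YAP control replicate 2 (0.0795) or 2-week replicate 2 (0.0871). In the MYC livers 3 of the 12 rose and 0 fell (median 0.31), and 0 of them passed without either MYC control.

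Proteins that clear free haemoglobin and haem are made by hepatocytes and macrophages. Of 8 such genes, 1 fell at 2 weeks of YAP, 3 fell at 4 weeks and 1 fell in the MYC livers, with 0 rising in any (median -0.25, -0.64 and 0.30). Hpx, hemopexin, the plasma haem carrier, was at 6400 and 8578 CPM in the YAP controls, 1917 and 1631 CPM at 2 weeks and 968, 2597 and 1953 CPM at 4 weeks (-2.08 ± 0.46 and -2.03 ± 0.40, adjusted p = 0.00715 and 0.00331, the former 0.0601 without 2-week replicate 2). Hp, haptoglobin, which binds free haemoglobin, fell by 1.49 ± 0.41 at 4 weeks (adjusted p = 0.0178), a call that was lost without either YAP control (adjusted p = 0.0549 and 0.103) and with total-count scaling (adjusted p = 0.121). Lrp1, a receptor for the haem and hemopexin complex, fell at 4 weeks (-0.91 ± 0.30, adjusted p = 0.0348) and in the MYC livers (-1.14 ± 0.30, adjusted p = 0.0226), calls that were lost in 6 and 4 of the 12 fits that left out 1 library (adjusted p up to 0.154 and 0.136), and at 4 weeks with total-count scaling (0.472). Without either YAP control, 1 of the 8 genes fell at 4 weeks. Hmox1, the haem-degrading oxygenase, did not pass (2.13 ± 0.72 at 2 weeks, adjusted p = 0.054), but it passed at 2 weeks by DESeq2 (0.00495), with total-count scaling (0.011) and without any 1 of the 3 4-week livers (0.000336 to 0.0385).

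Other globins and neighbours of the alpha cluster were also read. Hbq1b, a theta globin gene of the alpha cluster, had 1, 17 and 25 counts in the MYC livers, 0 in both MYC controls, 4 in YAP 4-week replicate 2 and 0 elsewhere. That is at least 7.25-fold higher in the MYC livers than a limit of 3 counts over both controls, with an adjusted p of 0.11 (edgeR), or 0.0467 without MYC replicate 1. Hbq1a had 7 counts, all in MYC replicate 3. Hbb-bh0, Hbb-bh2 and Hbb-bh3 of the beta cluster had 0 counts in all libraries. Mb, the myoglobin of muscle, had 112 and 153 counts at 2 weeks of YAP, 0, 2 and 17 at 4 weeks and 0 in the controls and MYC livers (edgeR adjusted p = 0.0192 at 2 weeks; DESeq2 0.181, and 0.0575 to 0.0824 without any 1 of the 4 livers compared). Cygb, cytoglobin, did not pass in any comparison with controls (adjusted p from 0.368 to 0.881), and at 4 weeks it passed without 4-week replicate 1 (0.0141). Of 5 tested genes listed as neighbours of the alpha cluster, 4 lie beside it on chromosome 11 in this annotation. Of these 4, 2 rose and 0 fell at 2 and at 4 weeks of YAP, and 0 passed in the MYC livers. Rhbdf1 rose by 3.88 ± 0.38 and 3.59 ± 0.36 (adjusted p = 0.000105 and 8.07e-05), and Mpg, a DNA glycosylase, by 1.71 ± 0.50 and 1.73 ± 0.47 (adjusted p = 0.0255 and 0.0161), the former lost without any 1 of the 4 livers compared (0.0532 to 0.151) and the latter without YAP control replicate 2 (0.121). Polr3k, the fifth gene of the list, lies on chromosome 2 and not beside the mouse cluster, and it fell at 4 weeks (-0.69 ± 0.23, adjusted p = 0.0358). That call was lost in 7 of the 12 fits that left out 1 library (adjusted p up to 0.203), and its sign turned with total-count scaling (0.05).

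The genes whose levels ran most like the adult globins were ranked by Pearson correlation of log2 CPM over the 12 libraries with the mean of the 4 adult genes, among 14664 genes with a mean of at least 1 CPM. Among the first 10 were Uspl1 (r = 0.95), Yars (0.95), Pds5b (0.94), Anapc1 (0.94), Bpgm (0.94), Iba57 (0.93), Gm28379 (0.93), Golga3 (0.92) and Rsrc2 (0.92). Of these, Bpgm belongs to the late erythroid list, and the other genes named are in none of the lists used. Other known erythroid genes ranked lower: Slc4a1 at place 96 (0.86), Alas2 at 254 (0.82), Epb42 at 468 (0.77), Gata1 at 1705 (0.60) and Klf1 at 1782 (0.59). The ranking was not stable. With Spearman's correlation 0 of the 10 genes were kept, with total-count scaling 2, and with the profile of Hbb-bs and Hbb-bt alone, a choice made after seeing the data, 4. All points share library depth and scaling with the profile, and the correlations are descriptions of these libraries.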

How the data were processed

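Liver RNA was measured by RNA-seq in 12 libraries. The deposited values are raw counts per gene symbol. Per the submitters' processing notes, Trim Galore 0.4.1, HISAT2 2.1.0, featureCounts 1.6.3 and DESeq2 1.20.0 were used with GRCm38 (mm10). The annotation, the use of strand and the handling of reads that fit several genes are not given in the sources used here, so near-identical, overlapping and antisense genes cannot be fully separated. From the counts, log2 fold changes were fitted with edgeR 4.0.16 (filterByExpr, TMM, robust quasi-likelihood, 1 mean per group, all 12 libraries, 7 residual degrees of freedom), with Benjamini-Hochberg adjustment over 17964 genes and a threshold of 0.05. The biological coefficient of variation was 31.5%. Alternatives were DESeq2 1.42.0, total-count scaling, no filter, globins left out of library sizes, sister copies summed, 1 model at a time, a replicate block and each library left out. The scripts were tested on simulated data. CPM per kilobase uses exon lengths of GENCODE vM21. The 7 genes and all gene lists were chosen with earlier results of these data known. Genes named were all 7 globins, fixed erythroid genes, up to 4 genes a list by smallest p against controls, and those needed to account for a count; values of some list genes are not reported here. Total counts of 12511170 to 17690798 per library set the limit of 3 counts at 0.167 to 0.318 CPM. Samples with the same replicate number did not deviate together (correlations from -0.0316 to 0.0816), so they were not treated as pairs.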

Additional observations from a re-analysis of the deposited data

Results flagged for a closer look

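Whether genes answered differently to MYC and to 4 weeks of YAP was itself tested for 29 named genes around haemoglobin, and 11 of them passed by edgeR's quasi-likelihood test. Most of these genes were named for their small p-values against the controls in these data, so this count cannot be read against the 7.48% of all genes tested that passed, and it says nothing of the globin genes. Of the erythroid regulators, the difference was 5.81 ± 0.84 on the log2 scale for Klf1 (adjusted p = 0.00405) and 4.58 ± 0.89 for Tal1 (adjusted p = 0.0154). For Gata1 the fitted value was 11.09 ± 2.19 (adjusted p = 0.0158), a number that depends on the prior count because both MYC controls had 0 counts, and the call was lost without YAP control replicate 1 (adjusted p = 1) or MYC control replicate 2 (adjusted p = 0.0516). The call of Tal1 was lost without YAP control replicate 2 (0.193) or either MYC control (0.065 and 0.0743).

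Of the late erythroid genes, Car1 differed by 6.48 ± 0.94 (adjusted p = 0.00466) and Car2 by 2.94 ± 0.67 (adjusted p = 0.0279). Alas2 differed by 3.66 ± 0.85 (adjusted p = 0.032), and this call was lost in 8 of the 12 fits that left out 1 library (adjusted p up to 0.136), as was that of Car2 in 5 of the 12 (up to 0.121). Without the filter on low counts both calls were lost (adjusted p = 0.0977 and 0.0932), and that of Alas2 also with total-count scaling (0.0597). In haem synthesis and transport, the difference was 1.83 ± 0.24 for Tmem14c (adjusted p = 0.00204), 1.24 ± 0.26 for Cpox (adjusted p = 0.0173) and 2.66 ± 0.42 for Abcb10 (adjusted p = 0.00495). The call of Cpox was lost without any 1 of the 4 controls (0.0535 to 0.0982) and with total-count scaling (0.0847). Hpx differed by 2.21 ± 0.58 (adjusted p = 0.0422), a call lost in 9 of the 12 fits that left out 1 library (up to 0.173), with total-count scaling (0.0624) and without the filter (0.0519). Rhbdf1, next to the alpha globin cluster, differed the other way, by -3.63 ± 0.48 (adjusted p = 0.00198). Age, transgenes and controls also differ between the models, and these cannot be told apart from the effects of MYC and YAP.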

How the results depend on the processing

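The count of globin genes called was 0 in each comparison and stayed at 0 under every alternative run, except that the MYC comparison ranged from 0 to 1 over the libraries left out in turn (1 without MYC replicate 1). With total-count scaling the sign turned for Hbb-bt at 2 weeks of YAP (0.18) and, at 4 weeks, for Hba-a2 (0.14), Hbb-bs (0.41) and Polr3k (0.05). With the sister copies summed, the value set beside Hbb-bs at 4 weeks, now that of Hbb-bs plus Hbb-bt, was 0.27. The replicate block turned Hbb-bt at 4 weeks (-0.12) and Hba-a1 in the MYC comparison (-0.38). None of these values was called. The replicate numbers are names that do not pair the livers. The replicate block lowered the genes called from 4993 to 3827 at 2 weeks, from 6073 to 3539 at 4 weeks, from 3291 to 1514 for MYC, from 11 to 2 between times and from 1344 to 308 for the difference of effects, and left the globin genes called at 0.

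With 1 library left out, the log2 fold change ran from -6.72 to 0.32 for Hba-a2 and from -3.77 to 0.48 for Hbb-bt at 2 weeks. At 4 weeks it ran from -2.52 to 0.02 for Hba-a1, from -0.99 to 0.22 for Hbb-bs and from -0.53 to 1.12 for Hbb-bt. Between 4 and 2 weeks it ran from -0.88 to 6.14 for Hba-a2, from -0.18 to 4.10 for Hbb-bs and from -0.10 to 4.12 for Hbb-bt. In the MYC comparison it stayed positive, from 1.48 to 2.59 for Hbb-bs, 1.22 to 2.63 for Hbb-bt and 0.09 to 1.09 for Hba-a1. Without mitochondrially encoded genes, the share of globin counts in each group moved by less than the spread between its livers.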
